A study of Mus musculus with 4 samples.

Results

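The nuclear-encoded subunits of the respiratory chain and the ATP synthase were followed in naive CD4+ T cells from mouse spleen that had been cultured for 3 days under conditions that polarize towards regulatory T (Treg) cells. Members were all rows of the deposited table whose gene symbol begins with Nduf, Sdh, Uqcr, Cox4 to Cox8 or Atp5 in the pattern of a subunit name, which took 80 of 34745 rows. Of these, 35 are subunits of complex I, 4 of complex II, 8 of complex III, 16 of complex IV and 15 of complex V, and 2 (Atp5s and Atp5sl) carry an older Atp5 name but are not subunits. Ndufa4 was placed with complex IV, where its protein is found, although its symbol names complex I.

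The knockout-labelled group held 2 libraries, numbered 22 and 24, from C57BL/6 mice whose genotype is given as Setd2-CD4 cre, a Cre recombinase driven by the T-cell gene Cd4. The wild-type group held 2 libraries, numbered 13 and 15, from C57BL/6 mice with no transgene named. Setd2 encodes the methyltransferase that writes trimethylation on H3K36, and the title of the series ties it to T-cell autoimmunity and to phospholipid remodelling by Lpcat4. The labels give no age. Nothing in them tells whether 22 and 24, or 13 and 15, were different mice, so the p-values below reflect only how far these libraries vary, and that variation may be technical.

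The respiratory chain passes electrons from NADH through complex I and from succinate through complex II to ubiquinone, then through complex III and cytochrome c to oxygen at complex IV. Complexes I, III and IV pump protons across the inner mitochondrial membrane, and complex V, the ATP synthase, uses their return flow to make ATP. Most subunits are encoded in the nucleus and imported, while a few core subunits are made inside the organelle from mitochondrial DNA. Activated T cells raise both glycolysis and respiration as they divide, and Treg cells are known to rely on respiration.

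Library totals ran from 14599957 to 16030869 counts, and levels below are CPM (counts relative to a library size normalized by trimmed mean of M values) unless another scale is named. The whole-gene level of Setd2 was 137 and 113 CPM in knockout-labelled 22 and 24, against 137 and 146 CPM in wild type 13 and 15, and did not pass the test (log2 fold change -0.17, SE 0.14, adjusted p = 0.436), so the first group is called knockout-labelled throughout. Reads from exons outside a deleted part remain in such a level, and the labels name no exon. The T-cell genes Cd3e and Cd4 were abundant in all 4 libraries, at 259 to 291 and 986 to 1257 CPM. Foxp3, which defines Treg cells, stood at 31.9 and 75.8 CPM in knockout-labelled 22 and 24, against 242 and 247 CPM in wild type 13 and 15. Of the 4 T cell and Treg markers tested, Foxp3 and Il2ra fell and none rose (50% past the threshold, against 10.1% of all genes). The log2 fold change of Il2ra was -0.52 with DESeq2, and -0.55 to -0.49 in edgeR with 1 library left out in turn. For 2 CD8 T cell markers, the summed level was 182 and 78.4 CPM in knockout-labelled 22 and 24. It was 125 and 183 CPM in wild type 13 and 15, and neither marker passed. The summed level of 7 natural killer and innate lymphoid markers, most of it Kit, was 358 to 429 CPM in the knockout-labelled group and 168 to 176 CPM in wild type. Of the 6 tested, Klre1, Klri2 and Gzma rose and Eomes fell (log2 fold change -1.32, adjusted p = 0.0205), 66.7% against 10.1% of all genes. With upper-quartile scaling, library totals, DESeq2 and a length correction 4 rose. Klre1 missed the threshold with limma on log2(FPKM + 0.1) (adjusted p = 0.0537). With 1 library left out in turn, its log2 fold change was 1.22 to 2.05. Ncr1 stood at 0.191 to 0.535 CPM in the knockout-labelled group and at 0 in wild type. The summed level of 7 B cell markers was 290 to 339 CPM in the knockout-labelled group and 225 to 227 CPM in wild type. Most of it was Ighm. Of the 7, Igkc rose and the others did not pass (14.3% past the threshold, against 10.1% of all genes). The log2 fold change of Igkc was 1.33 to 1.83 with 1 library left out in turn. In all 7, both knockout-labelled libraries lay above both wild-type libraries, against 31.1% of all genes. Their median log2 fold change was 1.14. For 9 myeloid markers the summed level was 31.3 and 34.7 CPM in knockout-labelled 22 and 24 and 36.4 and 37.2 CPM in wild type. Of the 6 tested, Flt3 fell (log2 fold change -1.61) and none rose, 16.7% against 10.1% of all genes. For 7 erythroid markers the summed level was 164 and 161 CPM, against 213 and 226 CPM in wild type, and none of the 3 tested passed. The part of these cells in the results below was not tested. In bulk RNA, fewer cells of a type and less RNA per cell cannot be told apart.

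Promoter sequence was read for the members, since nuclear subunit genes are known to be served by a shared set of transcription factors, among them NRF1, GABP, YY1 and the estrogen-related receptors (ERR). RefSeq promoter windows (GRCm38.p6, 250 bases before to 50 after a start site) were found for 68 of the 80 members. The letters CGCNTGCGC of NRF1 were in the windows of 20 members (29.4%), against 9.6% of 17491 protein-coding genes. CCGGAAG, the core that GABP binds, was in 23.5% of members against 12.9% of all genes, AAGATGGCG of YY1 in 11.8% against 2.1%, and AAGGTCA of ERR in 11.8% against 4.7%. At least 1 of these 4 motifs was in 54.4% of members and in 25.7% of all genes. The 17491 genes include genes not past the filter on low counts used below. Among tested genes with a window, 1902 had CCGGAAG and 7295 did not, against 16 and 49 of the tested members. For the NRF1 letters these were 1446 and 7751 genes, against 20 and 45 members. For YY1 they were 338 and 8859 genes, and for ERR 356 and 8841, each against 8 and 57 members. Another 4 motifs were searched. GGGCGG of Sp1 was in 39.7% of members against 49.2%, CCAAT of NF-Y in 45.6% against 42.3%, the E-box CACGTG in 10.3% against 8.9% and TGACGTCA of CREB in 5.9% against 2.5%. Both strands were searched and motifs may overlap. These matches describe the letters of the windows and are not binding sites measured here.

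Upstream stretches are shown for 5 members, up to the RefSeq start and without any base that GENCODE annotates as an exon. They were chosen for the 2 members past the threshold (Uqcrh and Atp5sl), for Atp5b as the member with the highest level per transcript length, and for Ndufb4 and Cox6a1 as named members with NRF1 letters in the part that can be shown. Each runs 5′ to 3′ on the gene's own strand, and capitals mark matches to the NRF1, GABP, YY1 or ERR letters on either strand. Uqcrh (chr4:116075072-116075268, minus strand) carried the reverse complement of CCGGAAG with its first base 10 bases before the start:
Uqcrh: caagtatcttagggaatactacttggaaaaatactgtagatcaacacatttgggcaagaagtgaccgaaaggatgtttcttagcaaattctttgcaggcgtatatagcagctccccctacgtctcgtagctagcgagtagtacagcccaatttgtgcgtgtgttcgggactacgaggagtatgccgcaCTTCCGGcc
Atp5sl (chr7:25619164-25619413, plus strand) had no match in this stretch, and its YY1 letters lay 27 bases into the transcript:
Atp5sl: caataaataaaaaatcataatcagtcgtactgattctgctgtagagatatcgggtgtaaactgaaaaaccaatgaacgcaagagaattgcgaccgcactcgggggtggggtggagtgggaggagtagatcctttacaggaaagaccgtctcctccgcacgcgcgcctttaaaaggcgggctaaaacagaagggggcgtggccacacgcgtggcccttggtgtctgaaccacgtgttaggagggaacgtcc
Atp5b (chr10:128083057-128083272, plus strand) had no match to these 4 motifs:
Atp5b: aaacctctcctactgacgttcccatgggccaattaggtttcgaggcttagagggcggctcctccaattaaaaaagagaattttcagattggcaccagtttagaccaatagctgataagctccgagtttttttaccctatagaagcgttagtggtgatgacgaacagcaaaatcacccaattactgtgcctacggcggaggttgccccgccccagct
Ndufb4 (chr16:37654454-37654618, minus strand) carried NRF1 letters 191 bases before the start, and its window also held ERR letters outside this stretch:
Ndufb4: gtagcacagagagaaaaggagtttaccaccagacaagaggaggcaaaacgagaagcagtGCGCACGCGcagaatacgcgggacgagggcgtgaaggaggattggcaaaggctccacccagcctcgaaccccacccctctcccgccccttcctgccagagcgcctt
Cox6a1 (chr5:115348982-115349129, minus strand) carried NRF1 letters 3 times, at 162 and 161 bases (overlapping) and at 117 bases before the start. Its window also held the GABP letters, outside this stretch:
Cox6a1: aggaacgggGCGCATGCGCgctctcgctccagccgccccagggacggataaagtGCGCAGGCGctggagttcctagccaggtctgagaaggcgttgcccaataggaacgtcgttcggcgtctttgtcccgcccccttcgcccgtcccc

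Levels between genes were compared as CPM per kb of the principal transcript, averaged over the 4 libraries, because the deposited FPKM divide by a length that was 2.06 times the principal transcript in the median member and ranged from 0.817 to 7.81 times it. All subunits but 3 were detected: Cox8b, Cox8c and Cox7b2 had 0 counts in every library, which allows up to 0.184 to 0.201 CPM per library (3 counts, counting error only). Median levels of the detected subunits were 39.4 CPM per kb for complex I, 73.3 for complex II, 84.0 for complex III, 92.7 for complex IV and 127 for complex V. With the 3 undetected genes counted at 0, the median of complex IV was 48.7 CPM per kb, below complexes II and III. On the deposited FPKM scale the medians of the detected subunits were 15.8 for complex I, 42.6 for complex II, 37.1 for complex III, 19.4 for complex IV and 33.4 for complex V. Among detected subunits complex I was thus lowest on both scales, and the order of the other complexes differed. With the 3 undetected genes counted at 0, the FPKM median of complex IV was 15.4, below complex I. The highest single levels were those of Atp5b, the catalytic beta subunit of the ATP synthase, at 378 CPM per kb, Uqcrh, the hinge protein of complex III, at 327, and Cox8a at 313. Complex I was led by Ndufa6 (164 CPM per kb) and complex II by Sdha, the flavin-binding subunit that oxidizes succinate (107 CPM per kb). The order of single genes differed in part between both scales (Spearman correlation of 0.781 over 77 members, a description across genes), and Cox8a led with 315 FPKM while Atp5b had 105. The low values of Ndufb2 (2.63 CPM per kb) and Atp5g1 (1.29 CPM per kb) rest on annotated principal transcripts of 4371 and 4715 bases, against a median of 861 bases over members, so their order depends on that annotation.

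Where a subunit comes as tissue isoforms, the level was uneven. Cox6a1, the widespread form, had 75.3 and 97.5 CPM in knockout-labelled 22 and 24 and 98.4 and 93.0 CPM in wild type 13 and 15, while Cox6a2, the heart and muscle form, had 1.54 and 0.830 CPM in knockout-labelled 22 and 24 and 1.78 and 1.81 CPM in wild type 13 and 15. Cox7a2 had 60.7 to 66.8 CPM over all 4 libraries, against 0.335 to 0.735 CPM for its muscle counterpart Cox7a1, which was too low to test. Cox8a had 177 and 191 CPM in knockout-labelled 22 and 24 and 163 and 157 CPM in wild type 13 and 15, while the muscle form Cox8b and the testis form Cox8c were at 0. Cox6b2, known as a testis form in other work, was readily detected, with 41.7 and 57.4 CPM in knockout-labelled 22 and 24 and 68.3 and 49.6 CPM in wild type 13 and 15, beside 87.9 to 109 CPM over the 4 libraries for the widespread Cox6b1. Of the 3 genes for the c subunit of the proton-driven ring, Atp5g3 held nearly all counts, with 88.1 to 102 CPM, against 5.745 to 6.91 CPM for Atp5g1 and 2.39 to 4.63 CPM for Atp5g2. Atp5g2 shares 87.4% of its 50-base stretches with other genes, so its count is uncertain.

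**Figure D1:**
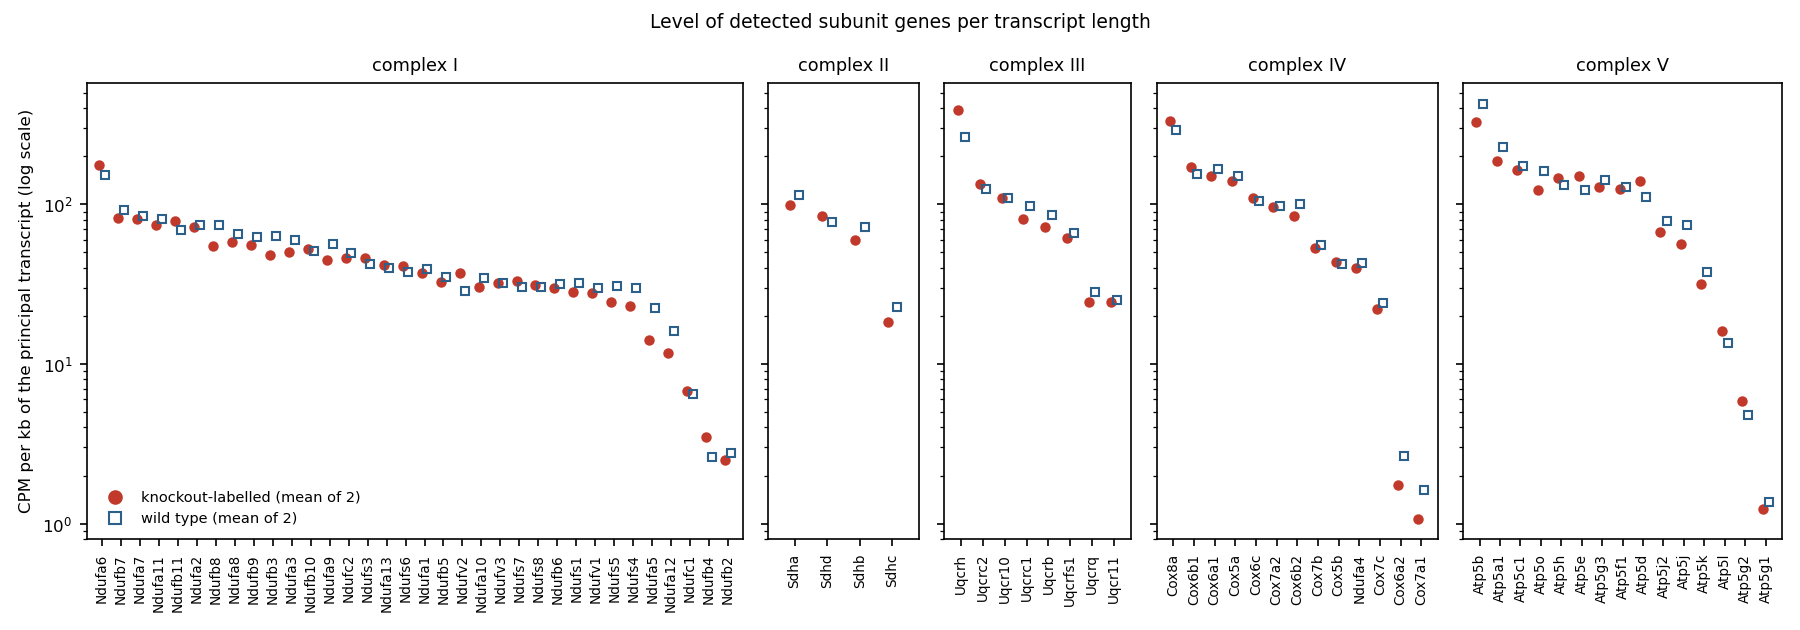
Level of the detected subunit genes, except 1 that is not shown, in CPM per kb of the principal transcript (vertical axis, log scale), by complex and in falling order. Filled red circles are means of the 2 knockout-labelled libraries and open blue squares means of the 2 wild-type libraries. Each pair lies close together beside the spread between genes, which runs from 1.29 for Atp5g1 to 378 for Atp5b.

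Between the groups, few subunit genes passed the test. Of 76 members that passed the filter on low counts, 2 were higher in the knockout-labelled libraries and 0 were lower (edgeR quasi-likelihood test, Benjamini-Hochberg adjusted p below 0.05). That is 2.63% of the members, against 10.1% of all 13279 genes tested, of which 5.53% were higher and 4.59% lower. DESeq2 gave the same 2 and 0. At an unadjusted p below 0.05, 4 members were higher and 9 lower, against 16.2% and 15.5% of all genes (31.6% in both directions). The median log2 fold change of the members was -0.097 and that of all genes -0.001. Fitted values lay below 0 for 50 members (65.8%), against 50.1% of all genes. Both knockout-labelled libraries lay below both wild-type libraries in 28 members (36.8%, against 32.7% of all genes), and above both in 13 members (17.1%, against 31.1%). Counts and medians over the members are a description and were given no test. The median standard error of a member was 0.14 on the log2 scale, and the 95% interval lay within a 1.5-fold difference either way for 44 members and within a 2-fold difference for 70.

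**Figure D2:**
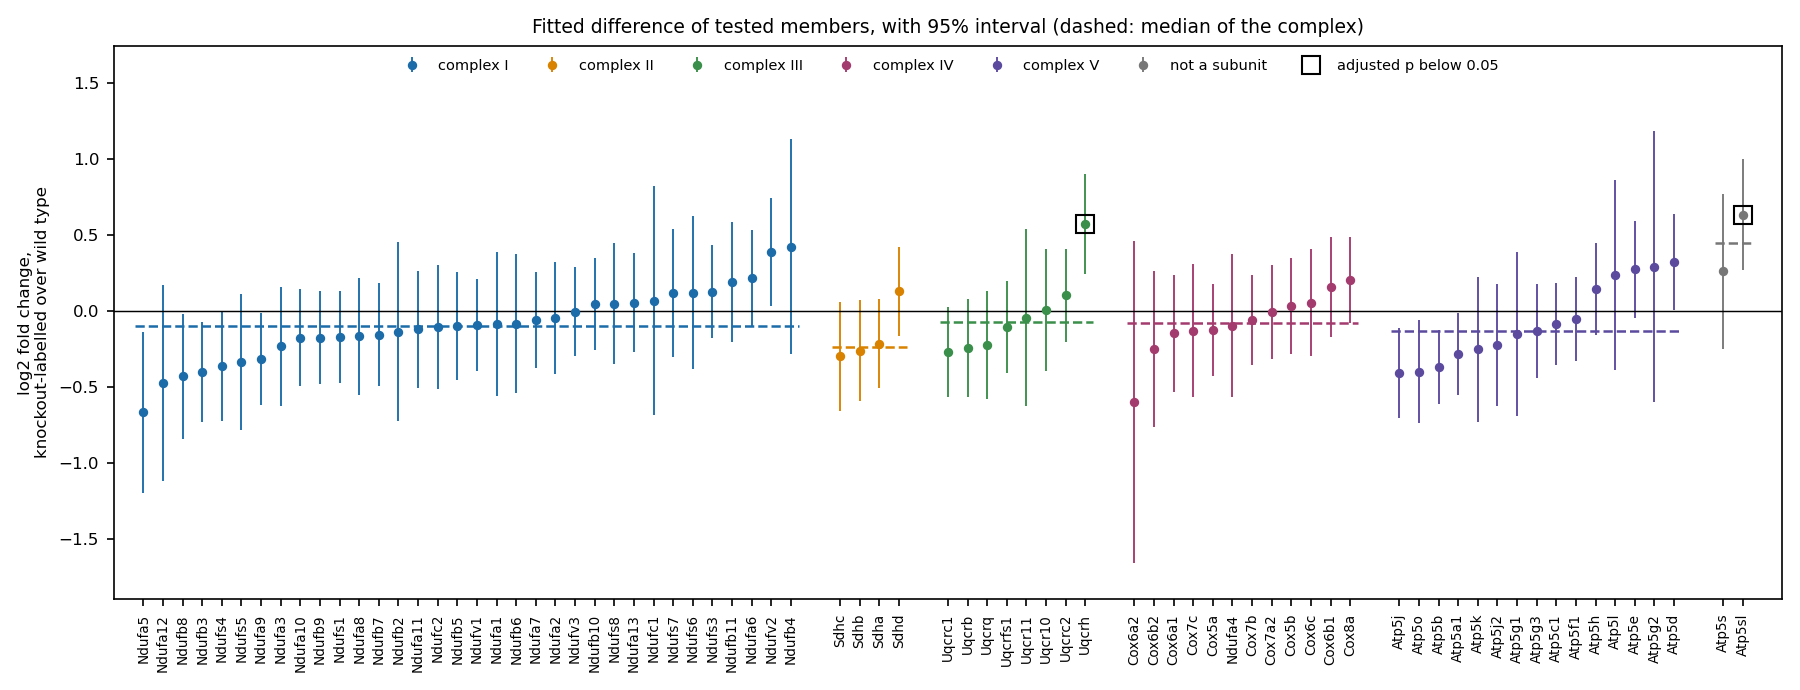
Fitted log2 fold change of the 76 tested members, except 1 that is not shown, knockout-labelled over wild type (vertical axis), with 95% intervals, ordered within each complex. Dashed lines are the medians of the complexes, and black squares mark Uqcrh and Atp5sl, the 2 members past the threshold.

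Complex I, the NADH dehydrogenase, had 35 tested members and none past the threshold, with a median log2 fold change of -0.098. Its subunits form an N module that takes electrons from NADH, a Q module that hands them to ubiquinone, and a membrane arm that pumps protons. The medians of these parts were -0.05 over 10 members, -0.07 over 6 and -0.12 over 19. Ndufa5 of the Q module (ENSMUSG00000023089, chromosome 6, 24518666 to 24528013, GRCm38) had the lowest fitted value, with 10.1 and 14.7 CPM in knockout-labelled 22 and 24, against 19.4 and 19.99 CPM in wild type 13 and 15. The groups did not overlap, and the log2 fold change of -0.67 (SE 0.22, adjusted p = 0.0959) missed the threshold. Ndufa12, an N-module subunit, followed with 11.8 and 14.0 CPM in knockout-labelled 22 and 24 and 22.4 and 13.5 CPM in wild type 13 and 15, where the groups overlapped and wild type 13 stood apart (log2 fold change -0.47, SE 0.27, adjusted p = 0.273). Ndufa12 shares 26.2% of its 50-base stretches with the pseudogene Gm15920.

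None of the cofactor-carrying subunits of complex I passed the threshold. Among them, the iron-sulphur subunits Ndufs7 and Ndufs8 had log2 fold changes of 0.12 and 0.05 (SE 0.18 and 0.17). Ndufv1, which binds FMN and accepts electrons from NADH, had 47.1 and 45.8 CPM in knockout-labelled 22 and 24 and 47.1 and 52.0 CPM in wild type 13 and 15 (log2 fold change -0.09, SE 0.13). Ndufs1, the large iron-sulphur subunit, had 74.1 and 76.8 CPM in knockout-labelled 22 and 24, against 82.7 and 87.5 CPM in wild type 13 and 15. Its groups did not overlap, but the adjusted p was 0.385. Ndufv2, an iron-sulphur subunit beside Ndufv1, was the other way, with 59.6 and 67.0 CPM in knockout-labelled 22 and 24 and 52.7 and 43.9 CPM in wild type 13 and 15 (log2 fold change 0.39, SE 0.15, adjusted p = 0.13). Ndufb4, a membrane-arm subunit, had the highest fitted value of the complex at a low level, 3.28 and 3.51 CPM against 2.64 and 2.42 CPM in wild type (log2 fold change 0.43, SE 0.30, adjusted p = 0.364), and shares 37.0% of its 50-base stretches with Ndufb4c.

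Complex II, the succinate dehydrogenase that also serves the tricarboxylic acid cycle, had the lowest median, -0.24 over its 4 members, none of them past the threshold. Sdha had 265 and 306 CPM in knockout-labelled 22 and 24, against 325 and 340 CPM in wild type 13 and 15 (log2 fold change -0.22, SE 0.12, adjusted p = 0.269). Sdhb, which carries the iron-sulphur clusters, had 62.8 and 73.8 CPM against 83.8 and 79.9 CPM in wild type, and the membrane anchor Sdhc 51.7 and 64.8 CPM against 71.7 and 71.6 CPM in wild type. In these 3 of 4 genes (75%, against 32.7% of all genes) both knockout-labelled libraries lay below both wild-type libraries, and knockout-labelled 22 was the lowest. The other anchor, Sdhd, lay above, with 103 and 105 CPM against 93.7 and 96.4 CPM in wild type (log2 fold change 0.13, SE 0.12, adjusted p = 0.502).

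In complex III, the cytochrome bc1 complex, Uqcrh rose and the other 7 members did not pass the threshold. Uqcrh (ENSMUSG00000063882, chromosome 4, 116066965 to 116075071, GRCm38), the acidic hinge protein that helps cytochrome c to dock, had 207 and 221 CPM in knockout-labelled 22 and 24, against 157 and 130 CPM in wild type 13 and 15. The means were 214 ± 9.94 CPM in the knockout-labelled group and 144 ± 18.9 CPM in wild type (SD, n = 2 each), a 1.49-fold difference (log2 fold change 0.57, SE 0.14, edgeR adjusted p = 0.0485). With wild type 13 left out the adjusted p was 0.161, with wild type 15 left out it was 0.445, and 0.0603 and 0.0588 with upper-quartile scaling and with library totals. With limma on log2(FPKM + 1) and log2(FPKM + 0.1) it was 0.0714 and 0.069. Uqcrc1, a core protein, was lower in both knockout-labelled libraries without passing, at 126 and 141 CPM against 163 and 159 CPM in wild type (log2 fold change -0.27, SE 0.12, adjusted p = 0.193). Uqcrfs1, the Rieske iron-sulphur protein that passes electrons on, had 80.9 and 86.7 CPM against 91.0 and 89.6 CPM in wild type (log2 fold change -0.11, SE 0.13). The median of the complex was -0.08.

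Complex IV, the cytochrome c oxidase, had 12 tested members, none past the threshold, and a median log2 fold change of -0.08. With Ndufa4 counted in complex I, both medians moved by less than the spread between libraries. Cox5a, a matrix-side subunit, had 86.4 and 92.9 CPM in knockout-labelled 22 and 24 and 96.8 and 98.5 CPM in wild type 13 and 15 (log2 fold change -0.12, SE 0.13), and Cox5b, which binds zinc, 36.6 and 38.7 CPM against 38.5 and 35.1 CPM in wild type (log2 fold change 0.03, SE 0.13). The highest fitted value was that of Cox8a (0.20, SE 0.12, adjusted p = 0.278). The lowest was that of Cox6a2 (-0.60, SE 0.44, adjusted p = 0.391), which rests on 23 and 13 counts in knockout-labelled 22 and 24 and 29 and 27 counts in wild type 13 and 15.

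Complex V, the ATP synthase, had 15 tested members, none past the threshold, and a median log2 fold change of -0.13. Its F1 head makes ATP, its membrane sector carries the proton-driven ring, and its peripheral stalk holds them together. Atp5b (ENSMUSG00000025393, chromosome 10, 128083273 to 128090391, GRCm38) had 644 and 621 CPM in knockout-labelled 22 and 24, against 818 and 817 CPM in wild type 13 and 15. The groups stood clearly apart, and its log2 fold change was -0.37 (SE 0.10, adjusted p = 0.0646). It passed the threshold with library totals (adjusted p = 0.0452), without knockout-labelled 22 (0.033) and without knockout-labelled 24 (0.0219). Atp5a1, the alpha subunit that alternates with beta in the head, had 471 and 455 CPM against 531 and 596 CPM in wild type (log2 fold change -0.28, SE 0.11, adjusted p = 0.144). Atp5d, the delta subunit of the central stalk, was higher in both knockout-labelled libraries, at 182 and 211 CPM against 164 and 150 CPM in wild type (log2 fold change 0.32, SE 0.13, adjusted p = 0.15). Atp5d passed in 1 of 17 alternatives, and with 1 library left out in turn its log2 fold change was 0.21 to 0.44.

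Of the peripheral stalk, Atp5j, coupling factor F6, had 44.4 and 46.6 CPM in knockout-labelled 22 and 24, against 59.3 and 61.4 CPM in wild type 13 and 15 (log2 fold change -0.41, SE 0.12, adjusted p = 0.0792). Atp5o, the subunit that joins stalk and head, had 99.2 and 105 CPM against 147 and 122 CPM in wild type (log2 fold change -0.40, SE 0.14, adjusted p = 0.114). Neither pair of groups overlapped, which held on the lower side for 32.7% of all genes. Atp5j overlaps exons of Gabpa on the opposite strand over 397 bases, and Gabpa had 103 and 86.9 CPM against 70.5 and 88.5 CPM in wild type. Atp5o shares 35.5% of its 50-base stretches with other annotated genes. The labels do not say whether counting used strand, and without strand the reads of such pairs cannot be told apart.

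The second member past the threshold, Atp5sl (ENSMUSG00000057229, chromosome 7, 25619414 to 25625551, GRCm38), is Dmac2 in current naming and encodes a factor known from work on human cells to help build the membrane arm of complex I. It had 68.3 and 55.0 CPM in knockout-labelled 22 and 24, against 41.4 and 38.0 CPM in wild type 13 and 15. The means were 61.6 ± 9.45 CPM in the knockout-labelled group and 39.7 ± 2.45 CPM in wild type (SD, n = 2 each), a 1.55-fold difference (log2 fold change 0.63, SE 0.15, edgeR adjusted p = 0.0492). With wild type 13 left out the adjusted p was 0.182, with wild type 15 left out 0.326, and with knockout-labelled 22 left out 0.0513. It was 0.0507 with library totals, 0.0524 with limma-voom, and 0.0771 and 0.0732 with limma on log2(FPKM + 1) and log2(FPKM + 0.1). Atp5s, now Dmac2l, had 10.9 and 9.38 CPM against 9.32 and 7.58 CPM in wild type (log2 fold change 0.26, SE 0.21, adjusted p = 0.434).

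**Figure D3:**
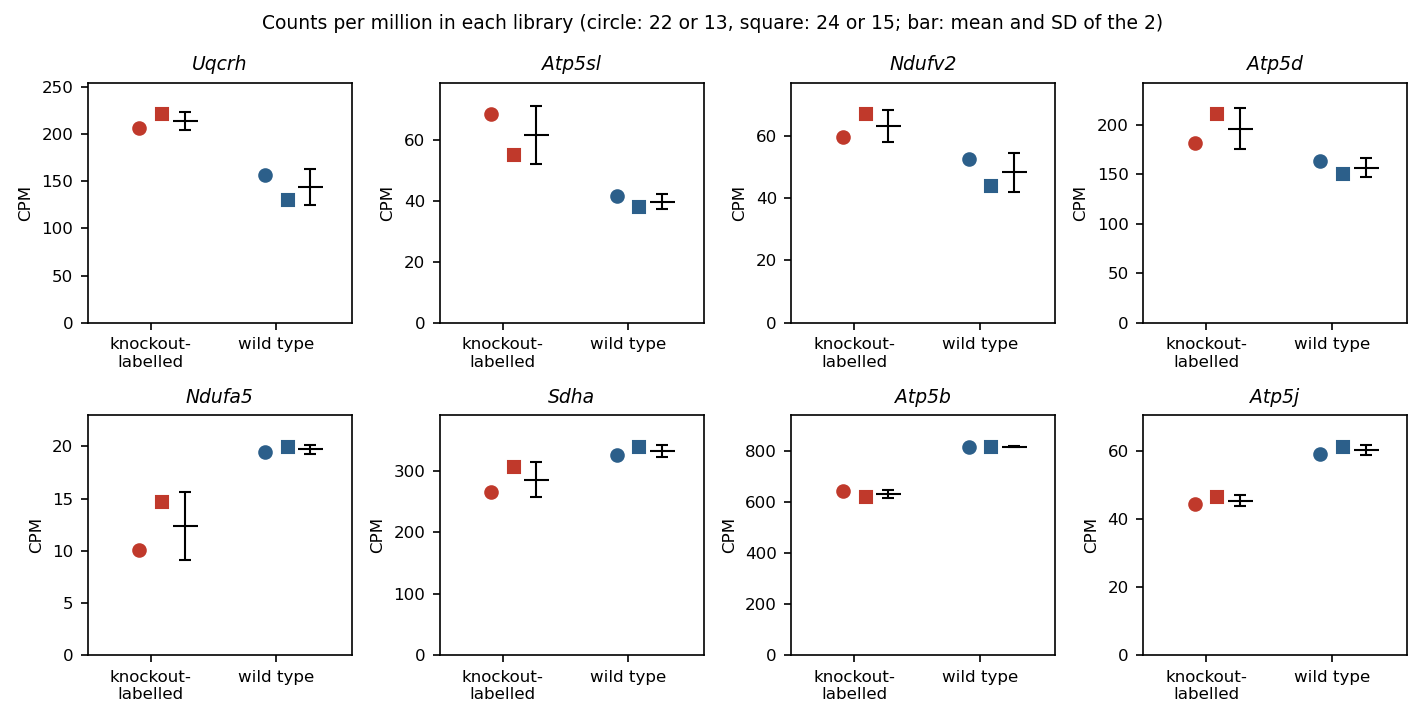
CPM of 8 members in each library (vertical axes, from 0), with the knockout-labelled libraries 22 (circle) and 24 (square) in red and the wild-type libraries 13 (circle) and 15 (square) in blue. Black bars are the mean and SD of the 2 libraries. The upper row shows members with higher and the lower row members with lower values in the knockout-labelled group, and Uqcrh and Atp5sl alone passed the threshold.

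The lower values were carried more by knockout-labelled 22 than by knockout-labelled 24. Taken against the wild-type mean, the median member lay at -0.17 in knockout-labelled 22 and at -0.02 in knockout-labelled 24 on the log2 scale. Knockout-labelled 22 was below knockout-labelled 24 in 62 of 76 members (81.6%), against 50.9% of all genes. In complex I these medians were -0.20 and 0.01, in complex II -0.35 and -0.13, in complex III -0.22 and -0.04, in complex IV -0.14 and 0.05, and in complex V -0.14 and -0.09. The deviations of complex V were thus the most alike in both libraries, and there the F1 head stood at -0.09 in each. Without knockout-labelled 24, 11 members were lower and 2 higher (14.3% lower, against 14.6% of all genes; 15.5% of all genes were higher), and the 11 were Ndufb3, Ndufb8, Ndufa5, Ndufa9, Ndufs4, Sdha, Sdhb, Sdhc, Uqcrc1, Atp5b and Atp5j. Without knockout-labelled 22, Uqcrh and Atp5d were higher and Atp5b lower, against 7.24% and 6.55% of all genes. Without wild type 13 or wild type 15 no member passed the threshold, where 1.39% of all genes were higher and 0.936% lower without wild type 13, and 0.868% were higher and 0.506% lower without wild type 15.

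**Figure D4:**
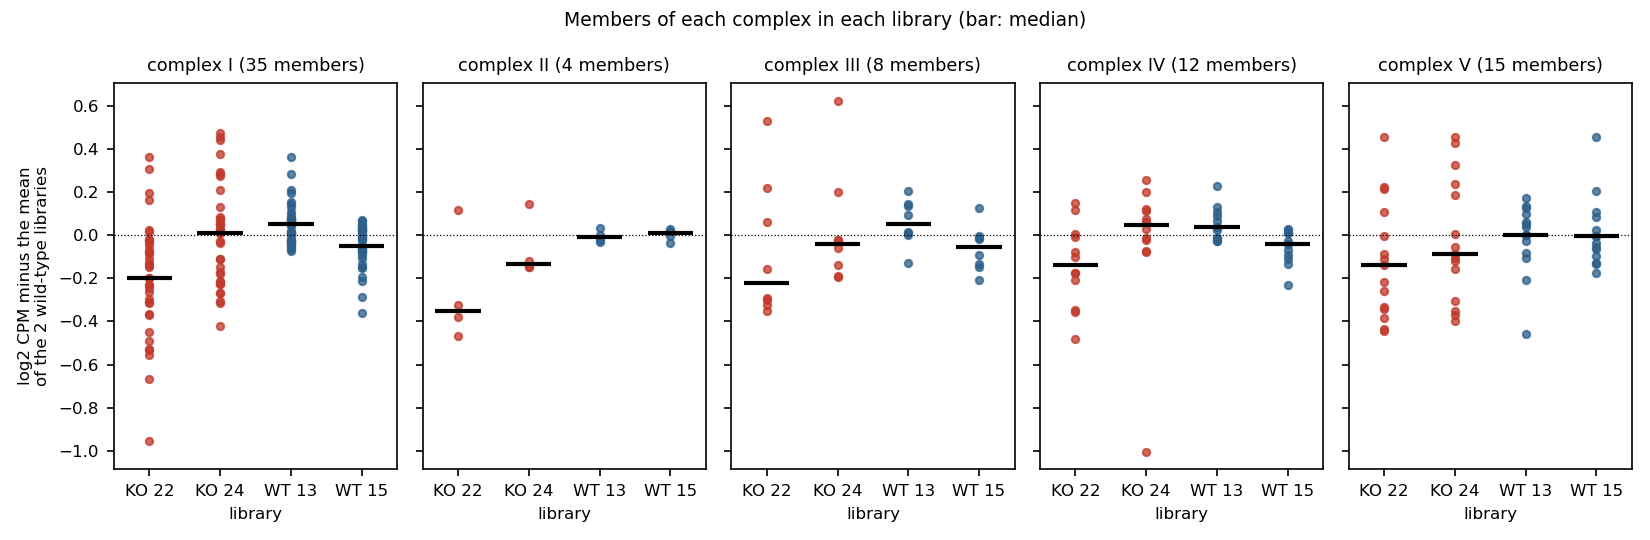
Log2 CPM of each tested subunit gene minus the mean of the 2 wild-type libraries (vertical axis) in each library (horizontal axis, knockout-labelled 22 and 24 in red, wild type 13 and 15 in blue), by complex. Black bars are medians. In every complex the bar of knockout-labelled 22 lies below that of 24. The distance is widest in complex II (-0.35 against -0.13) and complex I (-0.20 against 0.01), and smallest in complex V (-0.14 against -0.09).

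The 13 subunits made from mitochondrial DNA were measured in the same libraries. Of these, 4 fell (30.8%, against 4.59% of all genes) and none rose, and the median was -0.20. Their summed level was not lower, at 52438 and 50267 CPM in knockout-labelled 22 and 24, against 48707 and 49601 CPM in wild type 13 and 15. The number lower was 3 to 6 under the other scalings, filters and count-based fits, with 5 for DESeq2 and 6, beside 1 higher, with no filter, and it was 1 with limma on either FPKM scale. Without knockout-labelled 24 it was 7 lower and 1 higher with a median of -0.38, without knockout-labelled 22 it was 4, without wild type 13 it was 1 and without wild type 15 it was 0. mt-Cytb, the cytochrome b of complex III, fell to 1210 and 1710 CPM in knockout-labelled 22 and 24, against 2671 and 3190 CPM in wild type 13 and 15 (log2 fold change -1.005, SE 0.18, edgeR adjusted p = 0.0267). mt-Nd5, a proton-pumping subunit of complex I, fell to 1672 and 2007 CPM, against 2762 and 3071 CPM in wild type (adjusted p = 0.0297), and mt-Nd6 to 6.69 and 10.6 CPM, against 18.4 and 20.5 CPM in wild type (adjusted p = 0.038). mt-Nd3, of the membrane arm of complex I, fell to 86.6 and 114 CPM, against 157 and 160 CPM in wild type. Its adjusted p of 0.05 lay just under the threshold before rounding, and it missed with DESeq2 size factors (0.0507), upper-quartile scaling (0.0563), a filter at 5 CPM (0.0529), limma on either FPKM scale (0.061 and 0.0634) and without either wild-type library (0.197 and 0.27), and with counts summed over rows of shared sequence, where it came to 0.05005. mt-Co1, the catalytic subunit of complex IV, had 31749 and 27844 CPM against 24266 and 23558 CPM in wild type (log2 fold change 0.32, adjusted p = 0.0842). With wild type 13 left out, the adjusted p of mt-Nd5 and mt-Nd6 was 0.0584 and 0.0708, and without wild type 15 that of mt-Cytb, mt-Nd5 and mt-Nd6 was 0.0733 to 0.152. With limma on the FPKM scales, mt-Cytb and mt-Nd5 missed the threshold (0.0512 to 0.0596) and mt-Nd6 passed. mt-Nd5, mt-Nd6 and mt-Cytb are neighbours on the mitochondrial genome, and mt-Nd6 lies on the other strand, so without strand in counting its reads cannot be told from transcripts of the opposite strand. Subunits and electron carriers outside the name rule, such as Cyc1 and Cox4i1, gave 8 tested genes, none past the threshold.

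Among genes that build and control the chain, 2 of 48 assembly factors (4.17%) and 4 of 21 regulators (19.0%) passed the threshold, against 10.1% of all genes. Of the assembly factors, Surf1, which helps to build complex IV, rose to 61.6 and 61.2 CPM in knockout-labelled 22 and 24, against 41.8 and 39.7 CPM in wild type 13 and 15 (adjusted p = 0.035). Atpaf1, a chaperone of the ATP synthase beta subunit, fell to 5.69 and 7.60 CPM, against 19.3 and 15.0 CPM in wild type (log2 fold change -1.37, SE 0.24, adjusted p = 0.025). Of the regulators, Gabpb1 rose and Gabpb2, Lrpprc and Myc fell. Gabpb1 and Gabpb2 encode alternative partners of the GABP DNA-binding subunit, and they went opposite ways, with Gabpb1 at 146 and 138 CPM against 95.5 and 101 CPM in wild type (adjusted p = 0.0454) and Gabpb2 at 133 and 119 CPM against 180 and 225 CPM in wild type (adjusted p = 0.0406). Lrpprc, which stabilizes mitochondrial messenger RNAs, fell to 31.8 and 37.5 CPM, against 56.4 and 65.3 CPM in wild type (log2 fold change -0.81, SE 0.15, adjusted p = 0.0278). Myc, a growth factor-induced regulator, fell to 30.4 and 38.4 CPM, against 56.0 and 60.8 CPM in wild type (adjusted p = 0.0337). Nrf1, Gabpa and Esrra had log2 fold changes of 0.26, 0.26 and 0.41 and did not pass. With each wild-type library left out in turn, the adjusted p of Surf1, Gabpb1, Gabpb2, Lrpprc and Myc was above the threshold (0.07 to 0.365), and that of Atpaf1 was 0.0868 without wild type 13. With limma on either FPKM scale Atpaf1 alone of these 6 passed. Gabpb1 also missed the threshold with library totals (edgeR adjusted p = 0.0525).

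Other mitochondrial lists are given by their counts. Of 19 enzymes of the tricarboxylic acid cycle and its supply, 3 fell (15.8%, against 4.59% of all genes), none rose, and the median was -0.20. Pcx, the pyruvate carboxylase that refills the cycle, fell to 8.499 and 9.45 CPM in knockout-labelled 22 and 24, against 25.4 and 23.5 CPM in wild type 13 and 15 (log2 fold change -1.45, SE 0.18, adjusted p = 0.0135), and passed with each library left out. Suclg2, a subunit of succinyl-CoA ligase, fell to 24.2 and 26.9 CPM, against 37.9 and 39.6 CPM in wild type (adjusted p = 0.0469). It missed the threshold with upper-quartile scaling (adjusted p = 0.0512) and with limma on log2(FPKM + 1) and log2(FPKM + 0.1) (0.068 and 0.0642). It did not pass without wild type 13 or wild type 15 (adjusted p = 0.23 and 0.343). Of 77 mitochondrial ribosomal protein genes, 1 rose (Mrpl9) and 1 fell (Mrps2), 2.60% against 10.1% of all genes, with a median of -0.17, and of 27 import genes none passed, with a median of -0.16. Of 78 cytosolic ribosomal protein genes, 2 rose (Rpl24 and Rpl36) and none fell, 2.56% against 10.1% of all genes, with a median of 0.15. The number that rose was 2 to 6 under the other scalings, filters and fits, with 5 for DESeq2. Mrpl9, Mrps2, Rpl24 and Rpl36 did not pass without wild type 13 or wild type 15 (adjusted p = 0.0794 to 0.225). Without knockout-labelled 24, where 15.5% of all genes were higher and 14.6% lower, 7 mitochondrial ribosomal genes were higher and 11 lower, 1 import gene was higher and 6 lower, 11 cytosolic ribosomal genes were higher and 0 lower, and 7 cycle enzymes were lower. In the same comparison 6 assembly factors were higher and 6 lower, and 4 regulators were higher and 3 lower. The median of the mitochondrial ribosomal genes was -0.07 without wild type 13.

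**Figure D5:**
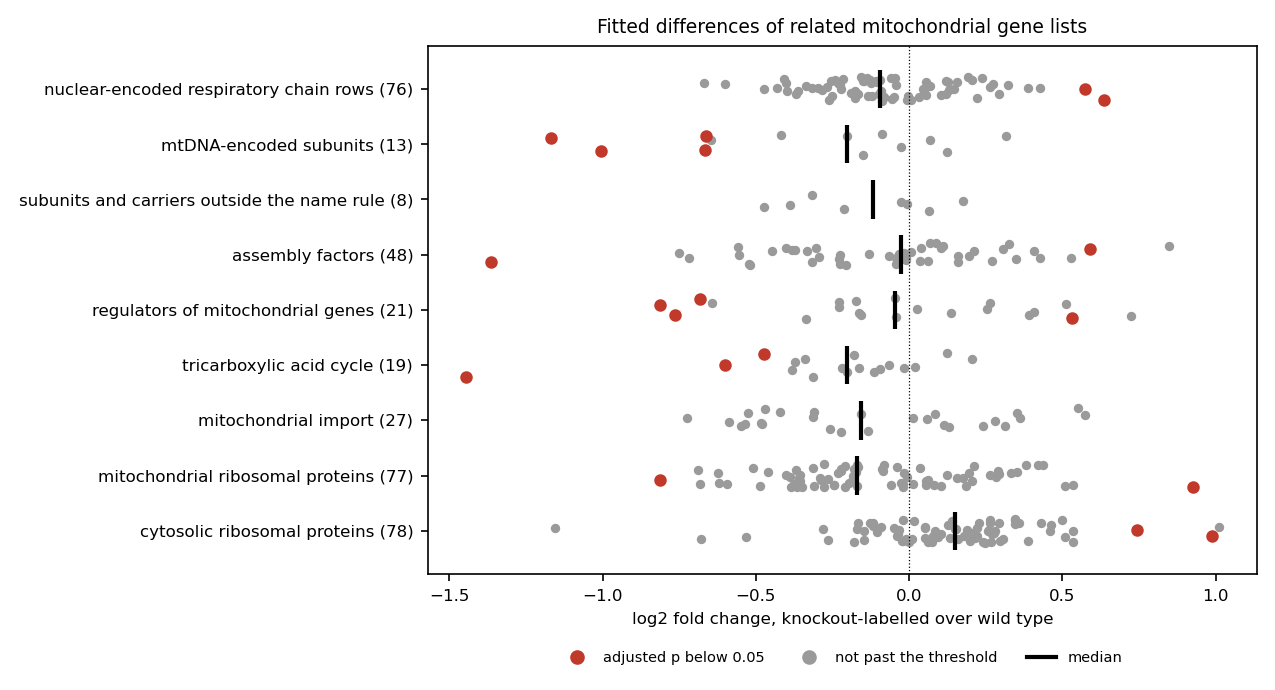
Fitted log2 fold change, knockout-labelled over wild type (horizontal axis), of the nuclear-encoded members and of 8 related gene lists, with the number of tested genes in brackets. Red points passed the threshold, grey points did not, and black bars are medians, which lie at -0.10 for the members, -0.20 for the subunits made from mitochondrial DNA and 0.15 for cytosolic ribosomal proteins.

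Set beside the promoter letters, the 16 tested members with CCGGAAG had a median log2 fold change of 0.09 and the 49 without it -0.10. The 20 with the NRF1 letters had a median of -0.10 and the 45 without them -0.09. A higher median with the letters was not particular to CCGGAAG. For CCAAT of NF-Y it was 0.006 with (29 members) and -0.10 without. For the ERR letters it was -0.002 with (8 members) and -0.09 without. With the YY1, Sp1 and E-box letters the medians were -0.08, -0.08 and -0.06, against -0.09 without each. With the CREB letters the median was -0.13, against -0.08 without. Over all tested genes with a window, the median was -0.03 for 1902 genes with CCGGAAG and 0.01 for 7295 without. These are descriptions over genes that share libraries, with no test, and Uqcrh is 1 of the 16.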

How the data were processed

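RNA sequencing measured transcript levels in 4 libraries, grouped by the genotype and title in the labels. Per the labels' protocols, RNA was extracted with TRIzol and sequenced by Illumina HiSeq. The submitters' processing notes name Bowtie2, RSEM and the genome GRCm38.p6 (mm10), but no tool version, strand setting or annotation release is given in the sources used here. The authors deposited whole-number counts per gene and, beside them, FPKM, which divide a count by library total and a fixed gene length. Members and lists were chosen with earlier results of these data known.

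All genes of the deposited counts entered 1 fit in edgeR 4.0.16 under R 4.3.3 (filterByExpr, minimum count 10 and total 15; trimmed mean of M values; glmQLFit and glmQLFTest, two-sided; Benjamini-Hochberg adjustment over 13279 genes; threshold 0.05). Adjusted p-values in the text are from this test. The biological coefficient of variation was 0.157. Floors and counts of 3 cover counting error only. An exact test of 2 against 2 libraries cannot give a p below 0.333. Replicates differed by more than counting noise (chi-square per degree of freedom 28.5 in the knockout-labelled pair and 9.33 in wild type). Deviations per library used log2 CPM with a prior count of 2. Named members are, in each complex, those past the threshold, the highest and lowest FPKM, the 2 largest values in each direction, cofactor-carrying subunits and tissue isoforms, and up to 3 called genes per list; members named beside a count taken without a library, and regulators that match a searched motif, were added after their values were seen. Of the genes in the lists, Coa1 matched no symbol. Transcript lengths, 50-base stretches shared with other genes and exon overlaps came from GENCODE M21, and promoters from RefSeq, matched by symbol or synonym. The edgeR step was tested on simulated data. Alternatives were other scalings, filters, DESeq2 1.42.0, limma 3.58.1 (voom, and log2(FPKM + 1) and log2(FPKM + 0.1)), a length correction and each library left out. A group reduced to 1 library was taken to have the spread of the remaining pair. Values of some single genes are not reported here; counts and medians include them.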

Additional observations from a re-analysis of the deposited data

How the results depend on the processing

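No paired analysis was possible because the labels give the 2 groups no replicate number in common. The count of members past the threshold, 2 higher and 0 lower, became 1 higher with upper-quartile scaling and with limma-voom, 0 higher and 1 lower with library totals, and 0 higher with limma on log2(FPKM + 1) and on log2(FPKM + 0.1). Complex III then had 0 past the threshold with upper-quartile scaling, library totals and both FPKM fits, and complex V had 1 with library totals. Other scalings, filters, DESeq2, a length correction and the removal of genes encoded in mitochondrial DNA left the member counts at 2 and 0. With each library left out in turn, members higher ranged from 0 to 2 and members lower from 0 to 11. By complex, in either direction, these were 0 to 5 in complex I, 0 to 3 in complex II, 0 to 2 in complex III and 0 to 2 in complex V. All genes past the threshold were 734 higher and 610 lower in the main test, 120 to 2122 higher and 70 to 2002 lower with a library left out, 1261 and 1088 with no filter on low counts, and 445 and 457 higher with limma on the 2 FPKM scales. The median of complex V was -0.16, -0.19 and -0.18 with upper-quartile scaling, library totals and log2(FPKM + 0.1). With a library left out, the medians ranged from -0.18 to -0.0119 for all members, -0.204 to 0.0189 for complex I, -0.36 to -0.12 for complex II, -0.23 to -0.00243 for complex III, -0.18 to 0.0379 for complex IV and -0.15 to -0.0782 for complex V. The cause of these changes was not tested. Library totals shifted the median of all genes by -0.06 and that of the members to -0.15, and the difference between both stayed at -0.10.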

Other observations

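Several members share transcript sequence with near copies. Of the 80 members, 44 share no 50-base stretch of their transcripts with another annotated gene, and 13 share at least 20% of them. Atp5h, the d subunit of the ATP synthase stalk, shares 46.0% with Gm10250, which had 1214 and 1582 counts in knockout-labelled 22 and 24 and 1442 and 1226 counts in wild type 13 and 15, close to the 1440, 1595, 1514 and 1287 counts of Atp5h itself in the same libraries. Cox5b shares 25.9% with Gm11273, which had 293 to 393 counts where Cox5b had 523 to 628. Ndufs5 shares 31.1% with BC002163, which had 88 to 176 counts where Ndufs5 had 217 to 347. When counts were summed with the rows that share 20% or more, an alternative chosen after seeing the data, the count of members past the threshold stayed at 2 higher and 0 lower.

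Exons of 27 members overlap those of another gene, 24 of them on the opposite strand. Cbarp, which overlaps the ATP synthase delta subunit gene Atp5d by 68 bases, fell to 15.9 and 21.8 CPM in knockout-labelled 22 and 24, against 39.3 and 32.6 CPM in wild type 13 and 15 (edgeR adjusted p = 0.0395), while Atp5d had a log2 fold change of 0.32. Haus1, which overlaps Atp5a1 by 129 bases, had 17.7 and 20.3 CPM against 29.2 and 27.8 CPM in wild type (adjusted p = 0.0641). Ndufb5 overlaps the mitochondrial ribosomal protein gene Mrpl47 over 616 bases, and neither passed the threshold (log2 fold change -0.10 for Ndufb5, adjusted p = 0.686, and -0.31 for Mrpl47, adjusted p = 0.337).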
